A study of Danio rerio with 9 samples.

Results

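The cytochrome P450 genes of the zebrafish were followed across 9 stages of development. They were taken as every gene of the deposited expression table whose symbol, ignoring case, begins with cyp, a number and a letter. This rule found 60 of the 29291 genes, among the 19580 whose identifier carried a symbol. By role and family they were 7 genes of steroid hormone synthesis, 3 retinoid genes, 2 vitamin D genes, 16 sterol and bile acid genes, 2 other CYP1 genes, 21 other CYP2 genes, 4 CYP3 genes, 4 CYP4 genes and CYP20A1. The 60 genes carried 56 symbols, because CYP11A1 and CYP4V2 each named a pair of genes and CYP27A1 named 3. These are told apart here by their Ensembl identifiers. P450 genes whose symbol had no row in the table, such as cyp1a, cyp3a65 and cyp24a1, were not analysed here.

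Cytochrome P450 enzymes are heme proteins that insert an oxygen atom into small fat-soluble molecules. One kind has a narrow task in making or breaking down a signal, such as a steroid hormone, retinoic acid, vitamin D or a bile acid. The other kind, mostly of the families CYP1 to CYP4, acts on fatty acids and on foreign compounds and in vertebrates is best known from liver and intestine. In the fish embryo the first kind matters early: CYP26 enzymes clear retinoic acid from regions that must stay free of it, and in zebrafish the pregnenolone made by Cyp11a1 is known to support the cell movements of epiboly.

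Poly(A) RNA came from whole zebrafish of the AB strain, from about 2000 individuals per stage, and was sequenced as SOLiD fragment libraries. In hours after fertilization, the 64-cell stage was taken at 2 hours, oblong-sphere between 3.6 and 4, 50%-epiboly at 5.25, 15-somite between 16.5 and 17.5, Prim-25 at 36, Long-pec at 48, Pec-fin at 60 and Protruding-mouth at 72, and the last sample was the larva at 1 week. No treatment or mutation separates them. Each stage had 1 library, so there is no replicate error, no test between stages was made, and every difference below describes these libraries. Levels are in RPKM, reads scaled to the length of the gene and to the mapped reads of the library. Series of 9 values run from 64-cell to the 1-week larva in the order above.

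Mapped reads, recovered from the RPKM steps of 8 libraries, ran from 123311411 at 64-cell to 205507592 at Protruding-mouth, and the Pec-fin values gave no single total. Intervals given below are exact 95% Poisson intervals that cover counting error only. Genes of late organs were read in some early libraries. The summed level of 13 exocrine pancreas markers was 80.1 RPKM at 64-cell, 0.508 at oblong-sphere, 44.7 at 50%-epiboly, 99.8 at 15-somite, 21.2 at Prim-25, 77.7 at Long-pec, 6.84 at Pec-fin, 168 at Protruding-mouth and 31741 at 1 week. The liver fatty acid binding protein gene fabp10a had 20.6, 0.0116, 7.64, 24.4, 3.15, 9.80, 0.487, 17.3 and 648 RPKM. In both measures the 64-cell, 15-somite and Long-pec libraries were higher than the library after each of them. The sum of all 16 hepatocyte markers, fabp10a among them, shared this course after 64-cell and, by a small margin, after Long-pec, but not after 15-somite. It went from 59.5 to 1.51 RPKM after 64-cell, from 1416 to 3552 after 15-somite and from 3756 to 3479 after Long-pec. Most of the sum at Long-pec and Pec-fin was the apolipoprotein gene apoa2, with 2953 and 2977 RPKM. The median of the 16 markers was more clearly lower after Long-pec, going from 24.97 to 16.4 RPKM. From 15-somite to Prim-25, 10 of the 16 were at least 2-fold higher and 2 lower, and from Long-pec to Pec-fin 0 were higher and 2 lower. Of all 19868 genes at 1 RPKM in at least 1 library, 6.23% were higher and 4.96% lower at the first of these steps. At the second step 0.785% were higher and 0.72% lower.

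P450 genes as a group were sparse in the embryo and broad in the larva. Of the 60 genes, 14 reached 1 RPKM at 64-cell, 13 at oblong-sphere, 13 at 50%-epiboly, 18 at 15-somite, 20 at Prim-25, 18 at Long-pec, 19 at Pec-fin, 25 at Protruding-mouth and 44 at 1 week. As shares these went from 23.3% at 64-cell to 41.7% at Protruding-mouth and 73.3% at 1 week, while the shares of all 29291 genes were 39.9%, 53.1% and 59.3%. The larva was the 1 stage at which the P450 share exceeded that of all genes. In these 9 libraries 51 members reached 1 RPKM at least once and 9 never did, namely 1 of the CYP11A1 genes (ENSDARG00000092696), cyp21a2, cyp39a1, cyp46a1.5, cyp2k22, cyp2k31, cyp2x10.1, cyp2x10.2 and cyp4f3.

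The summed P450 level showed 2 peaks made of different genes. It was 176 RPKM at 64-cell, 146 at oblong-sphere, 249.7 at 50%-epiboly, 131 at 15-somite, 107 at Prim-25, 112 at Long-pec, 98.9 at Pec-fin, 111 at Protruding-mouth and 461 at 1 week. Steroid genes made up 60.3% of it at 64-cell and 0.721% at 1 week. Retinoid genes made up 42.2% at 50%-epiboly, where CYP26A1 alone gave 41.9%. CYP27C1, counted by its name with the sterol genes although its enzyme acts on vitamin A, gave another 17.7% there. The other CYP2 genes went from 7.89% at 50%-epiboly to 52.2% at 1 week. The summed RPKM of all genes also differed, from 352522 at 50%-epiboly to 541791 at 1 week. As a share of that total, the 60 P450 genes had 0.0567% at 64-cell, 0.0708% at 50%-epiboly, 0.0221% at Pec-fin and 0.085% at 1 week. The larva thus exceeded 50%-epiboly by less in share than in RPKM. In a bulk RNA sample, fewer cells of a type and less RNA per cell cannot be told apart, which holds for every level given here.

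**Figure D1:**
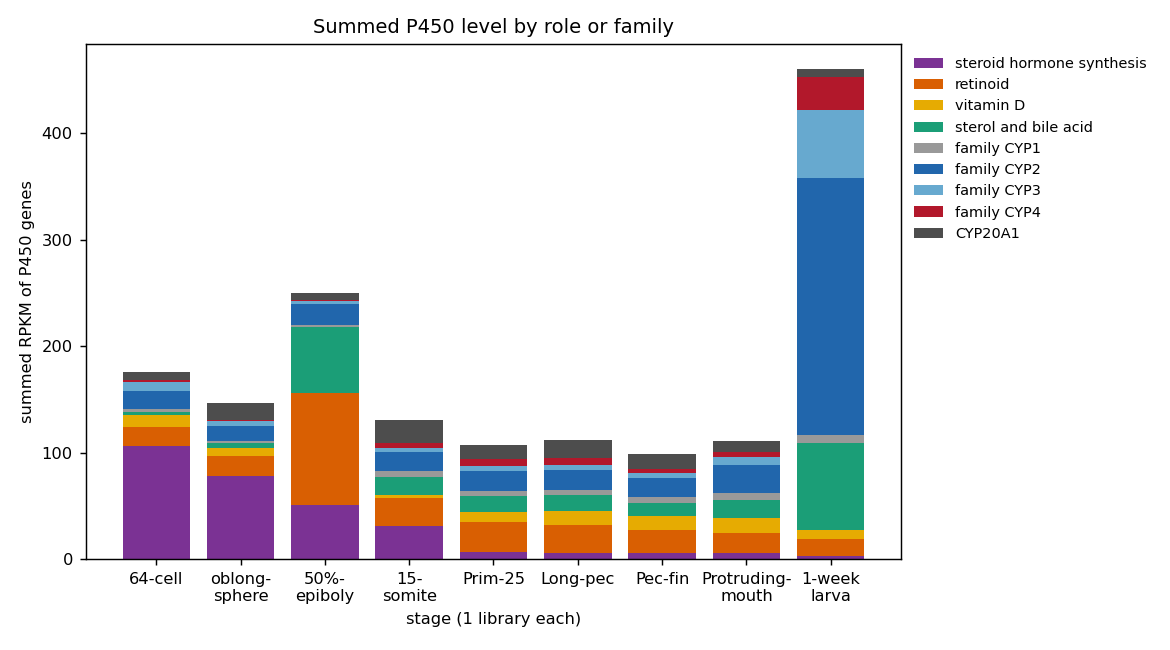
Summed RPKM of the 60 P450 genes at each stage (1 library each), stacked by role or family. Steroid genes are the largest block at 64-cell (106 RPKM), retinoid genes at 50%-epiboly (105 RPKM) and other CYP2 genes at 1 week (240.5 RPKM). CYP27C1 is counted with the sterol and bile acid genes.

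**Figure D2:**
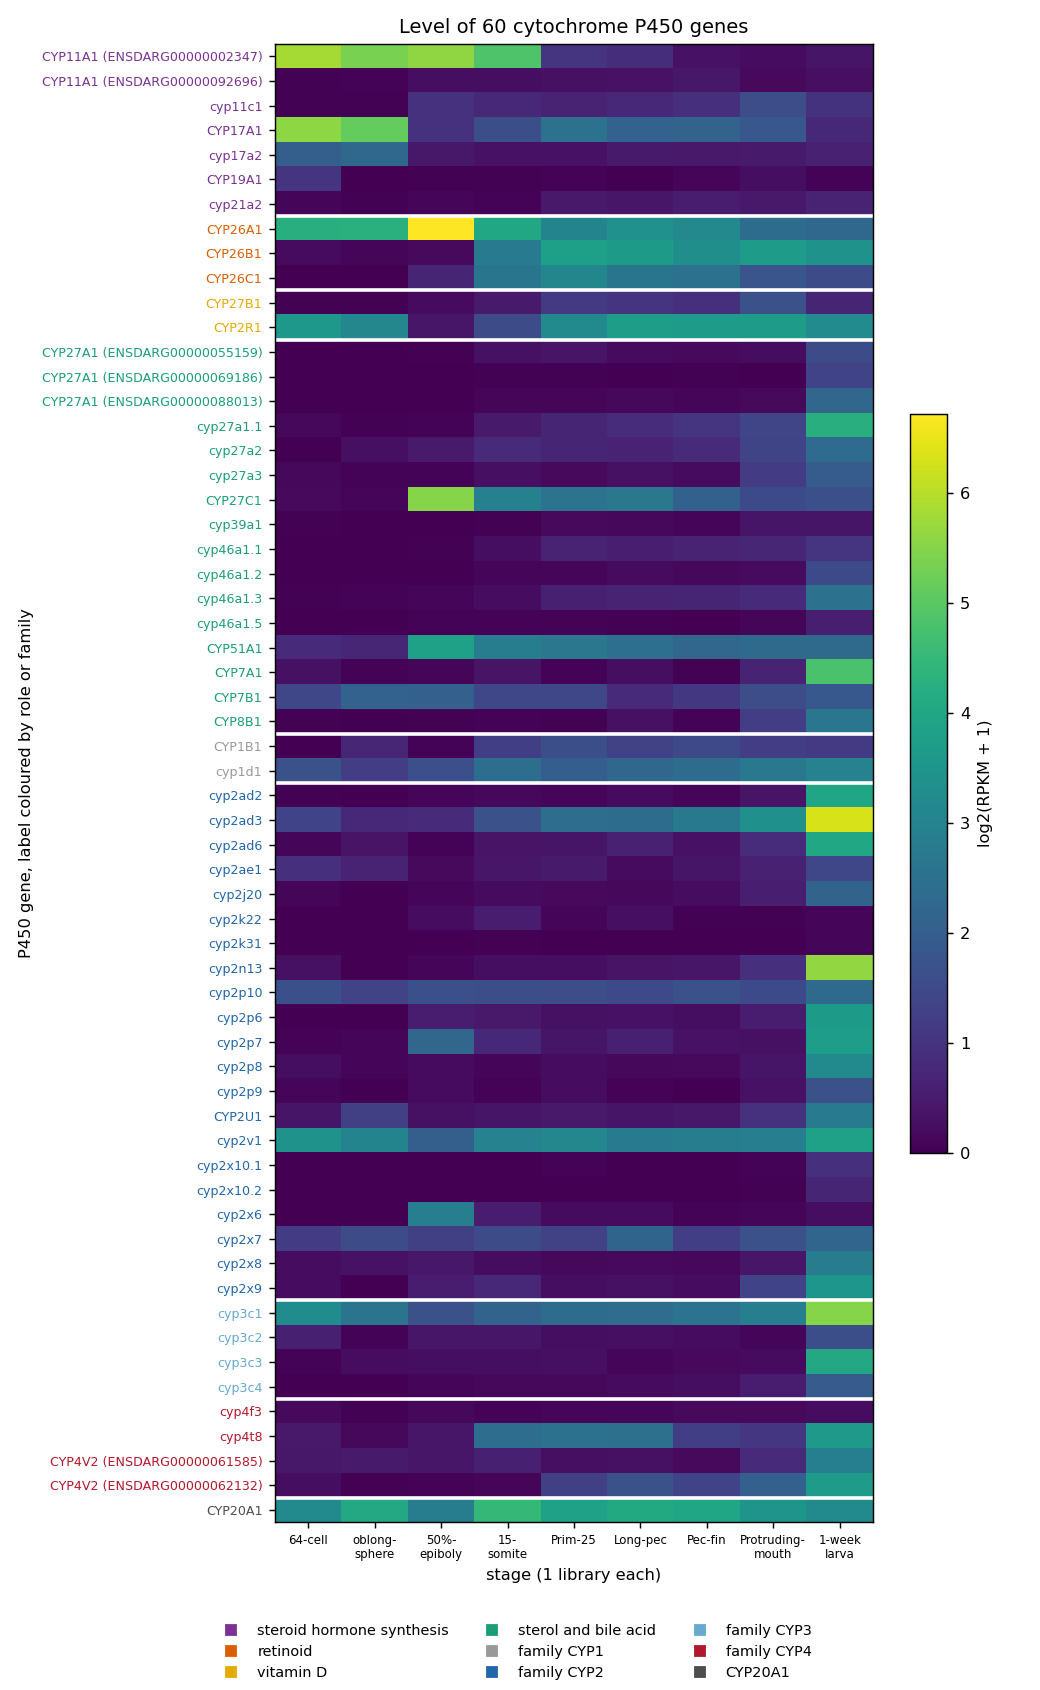
Level of each of the 60 P450 genes at each stage, as log2(RPKM + 1), with genes ordered by role or family. Bright cells are high levels. They are seen for CYP11A1 (ENSDARG00000002347) and CYP17A1 on the left and for CYP26A1, CYP27C1 and CYP51A1 at 50%-epiboly. Most CYP2, CYP3 and CYP4 rows are brightest at 1 week, the stage at which 41 of the 60 genes were highest.

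Among the steroid hormone genes, a pair was abundant in the earliest embryo and the rest were low throughout. CYP11A1 (ENSDARG00000002347), whose enzyme cuts the side chain of cholesterol to give pregnenolone, had 55.4, 40.1, 48.1, 28.2, 1.03, 0.834, 0.254, 0.171 and 0.297 RPKM. It was high in the first 4 libraries and at or under about 1 RPKM in the other 5. CYP17A1, the 17-alpha-hydroxylase and lyase on the way to androgens and cortisol, had 46.6, 34.4, 0.938, 2.09, 4.72, 3.36, 3.41, 2.56 and 0.678 RPKM. It was low 2 stages earlier than CYP11A1, already at 50%-epiboly, and intermediate from 15-somite to Protruding-mouth. cyp17a2, whose fish enzyme hydroxylates but scarcely cleaves, had 3.08, 3.78, 0.343, 0.266, 0.245, 0.406, 0.364, 0.389 and 0.542 RPKM, so it too was lower from 50%-epiboly on.

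The step difference used from here on is the difference in log2(RPKM + 1) between neighbouring stages, later minus earlier, called at 1 (2-fold) in either direction. It understates the change of low genes. Of the 19868 genes at 1 RPKM in at least 1 library, 14.4% were called higher and 31.1% lower into 50%-epiboly, and 15.1% higher and 6.86% lower into the larva, and the counts of genes below stand beside these shares. From oblong-sphere to 50%-epiboly it was -4.19 for CYP17A1 and -1.83 for cyp17a2, while CYP11A1 (ENSDARG00000002347) was called lower only later, with -3.84 from 15-somite to Prim-25. The counting intervals of CYP17A1 were 33.9 to 34.9 RPKM at oblong-sphere and 0.858 to 1.02 at 50%-epiboly, from 18255 and 505 reads.

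The remaining 4 steroid genes stayed at or below 2 RPKM. CYP19A1, the aromatase that makes estrogens, had 1.04, 0.0148, 0.0234, 0.0342, 0.0441, 0.0177, 0.0652, 0.186 and 0.0494 RPKM, with a step difference of -1.01 from 64-cell to oblong-sphere (-0.96 when scaled without the 100 most abundant genes). The table does not say which of the zebrafish aromatases the symbol stands for. Between the same 2 libraries 7 of 15 oocyte and ovary markers were at least 2-fold lower, beside 3.3% of the 19868 genes. The sum of these markers went from 1029 to 311 RPKM, and the pancreas and liver markers were lower too. The part of such RNA in the CYP19A1 value was not tested.

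The late acting enzymes of the adrenal-like interrenal gland were low in these whole-animal libraries. cyp11c1, the 11-beta-hydroxylase that completes cortisol, had 0.0328, 0.0230, 0.931, 0.680, 0.573, 0.688, 0.862, 2.00 and 0.973 RPKM. cyp21a2, the 21-hydroxylase, had 0.0724, 0.0336, 0.0829, 0.0485, 0.375, 0.325, 0.422, 0.381 and 0.570 RPKM. The other CYP11A1 gene (ENSDARG00000092696) had 0.0368, 0.0445, 0.182, 0.184, 0.222, 0.256, 0.356, 0.12 and 0.209 RPKM and did not share the early level of its namesake. The summed level of 5 interrenal markers lay between 0.576 and 12.2 RPKM in these libraries.

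Other genes of steroid synthesis did not follow 1 course. Of 14 measured, 3 were at least 2-fold higher and 2 lower from oblong-sphere to 50%-epiboly. hsd3b2, a 3-beta-hydroxysteroid dehydrogenase, which acts on the product of Cyp11a1, had 6.82, 9.78, 137.9, 18.6, 1.39, 1.68, 0.439, 0.252 and 0.133 RPKM. It was highest at 50%-epiboly and, like CYP11A1 (ENSDARG00000002347), low from Prim-25 on. STARD3, which binds cholesterol at endosomes, had 39.1, 45.4, 33.5, 18.1, 6.93, 7.16, 4.97, 4.90 and 6.49 RPKM. The gene tspo, which encodes a mitochondrial outer membrane protein, went the other way, from 9.68 RPKM at 64-cell to 43.4 at Long-pec. STAR, which brings cholesterol into mitochondria in steroid-making glands, had 0.359 RPKM at 64-cell and 7.94 at 1 week.

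P450 enzymes need electrons, from P450 oxidoreductase (POR) in the endoplasmic reticulum and from ferredoxin in mitochondria, and heme. The ferredoxin gene fdx1 had 161, 121, 35.2, 37.8, 25.6, 34.7, 41.9, 37.4 and 41.5 RPKM and was highest in the first 2 libraries. One POR gene (ENSDARG00000059035) had 32.8, 20.7, 1.7, 2.31, 2.54, 3.25, 2.72, 4.87 and 20.1 RPKM, high at both ends of the series. The other POR gene (ENSDARG00000055092) was also lowest at 50%-epiboly, with 1.39 RPKM, and had 13.6 at 1 week. ALAS1, the first enzyme of heme synthesis outside red cells, had 114 RPKM at oblong-sphere, 18.7 at Prim-25 and 51.1 at 1 week, and PGRMC2, a heme-binding membrane protein, had 134 RPKM at 64-cell and 14.5 at 1 week. Of the 12 partner genes measured, 2 were higher by at least 2-fold and 4 lower from oblong-sphere to 50%-epiboly, and 1 was higher and 1 lower from Protruding-mouth to the larva.

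The 3 CYP26 genes, which hydroxylate and so clear retinoic acid, each had a course of their own. CYP26A1 had 17.9, 18.3, 104.6, 15.5, 7.23, 9.63, 8.01, 4.16 and 3.77 RPKM. It was the most abundant P450 gene at 50%-epiboly, with 37778 reads there, and was at least 3.77 RPKM in all 9 libraries. CYP26B1 had 0.144, 0.0588, 0.122, 5.80, 12.96, 11.8, 9.27, 12.2 and 9.68 RPKM, low before 15-somite and on a plateau from Prim-25. CYP26C1 had 0.0101, 0.0118, 0.607, 5.15, 7.45, 5.13, 4.67, 2.43 and 1.96 RPKM, highest at Prim-25 and lower at 1 week. CYP26B1 exceeded CYP26A1 in the 5 libraries from Prim-25 on.

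The calls followed the same order. CYP26A1 had a step difference of 2.45 into 50%-epiboly and -2.68 out of it. Out of 50%-epiboly, CYP26B1 had 2.60 and CYP26C1 1.94, and CYP26B1 had a further 1.04 from 15-somite to Prim-25. CYP26A1 and CYP26B1 thus moved in opposite directions between 50%-epiboly and 15-somite. From Protruding-mouth to 1 week none of the 3 was called.

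Of 14 other retinoid genes measured, 4 were at least 2-fold higher and 3 lower from oblong-sphere to 50%-epiboly. ALDH1A2, the main enzyme that makes retinoic acid in the embryo, had 0.426, 0.0173, 51.3, 16.7, 11.1, 16.1, 13.03, 14.2 and 7.49 RPKM and was highest at 50%-epiboly, as CYP26A1 was. The retinoic acid receptor gene rarab was highest at oblong-sphere, with 58.8 RPKM, and NCOR1, a co-repressor of nuclear receptors, also at oblong-sphere, with 26.8 RPKM. Retinoid genes called higher in the larva numbered 3, among them DHRS9, a retinol dehydrogenase, from 2.39 to 22.8 RPKM.

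**Figure D3:**
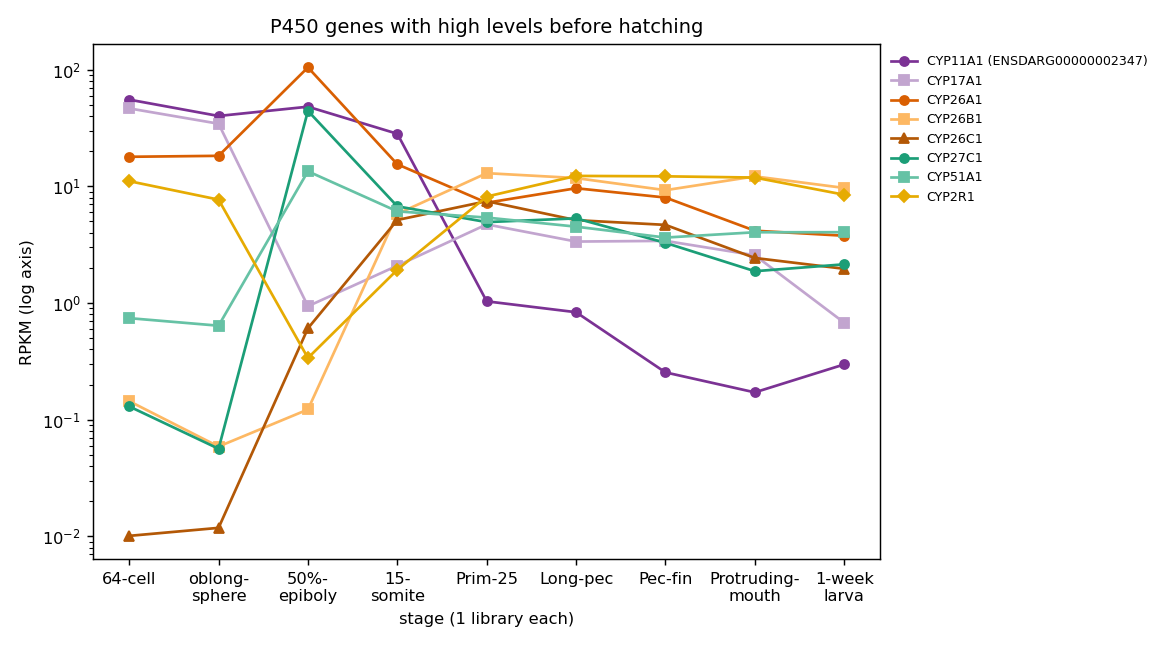
RPKM (log axis) of 8 P450 genes with high embryonic levels at the 9 stages, 1 library each. CYP11A1 and CYP17A1 start near 50 RPKM and part at 50%-epiboly, CYP26A1, CYP27C1 and CYP51A1 peak there, and CYP2R1 has its lowest value there (0.338 RPKM).

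CYP27C1, whose zebrafish enzyme desaturates vitamin A1 to vitamin A2, was grouped by its name with the sterol genes, yet its course resembled that of CYP26A1. It had 0.130, 0.0563, 44.3, 6.74, 4.94, 5.31, 3.28, 1.87 and 2.15 RPKM. The step from oblong-sphere to 50%-epiboly, from 56 to 44711 reads, gave the largest difference of any member at any step (5.42), and the following step gave -2.55. CYP51A1, the lanosterol demethylase of cholesterol synthesis, had 0.741, 0.639, 13.5, 6.10, 5.40, 4.51, 3.64, 4.04 and 4.04 RPKM, with step differences of 3.14 and -1.03. Of 18 other genes of cholesterol synthesis and its control measured, 16 reached 1 RPKM in at least 1 library. They include the regulators srebf2, SREBF1 and insig1 and the lipoprotein receptor gene ldlra. Into 50%-epiboly 1 of the 18 was at least 2-fold higher and 7, SREBF1 among them, were lower, beside 14.4% and 31.1% of all genes that passed this filter. The 1 that was higher, IDI1, an isomerase of the isoprenoid part of the pathway, went from 11.2 to 33.7 RPKM, while FDPS, which makes farnesyl diphosphate, went from 46.5 to 9.71 RPKM. LBR, a sterol reductase, was nearly level, at 46.6 and 48.5 RPKM.

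Both vitamin D genes were measured at every stage. CYP2R1, which adds the 25-hydroxyl group to vitamin D, had 11.1, 7.69, 0.338, 1.93, 8.17, 12.3, 12.2, 11.9 and 8.47 RPKM. It was lowest at 50%-epiboly, where CYP26A1 and CYP27C1 were highest, and its interval there, 0.285 to 0.397 RPKM, lay far below that of oblong-sphere, 7.43 to 7.96. Its step differences were -2.70 into 50%-epiboly and then 1.13 and 1.65. CYP27B1, the 1-alpha-hydroxylase that makes the active hormone, had 0.0320, 0.0243, 0.137, 0.407, 1.22, 1.02, 0.861, 2.19 and 0.617 RPKM, and no step was called. GC, the vitamin D binding protein of plasma, had 3.39 RPKM at Protruding-mouth and 49.9 at 1 week. Between these libraries CYP2R1 went from 11.9 to 8.47 RPKM and CYP27B1 from 2.19 to 0.617, both lower but short of a call. The counting intervals of CYP27B1 were 2.03 to 2.36 RPKM at Protruding-mouth and 0.533 to 0.711 at 1 week.

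The bile acid genes CYP7A1, cyp27a1.1 and CYP8B1 were below 2 RPKM before the larva and between 5.27 and 26.5 RPKM in it, while CYP7B1 was not highest there. CYP7A1, the rate-limiting enzyme of bile acid synthesis, had 0.237, 0.0488, 0.0759, 0.281, 0.0546, 0.187, 0.0248, 0.577 and 26.5 RPKM. The first 8 libraries were all below 1 RPKM and the larva far above them, from 244 reads at Protruding-mouth (interval 0.507 to 0.655 RPKM) to 11135 at 1 week (26.0 to 26.98 RPKM). cyp27a1.1, a sterol 27-hydroxylase, had 0.111, 0.0234, 0.0399, 0.395, 0.613, 0.810, 1.05, 1.63 and 17.9 RPKM, and unlike CYP7A1 it was higher at each stage from 50%-epiboly on. CYP8B1, the 12-alpha-hydroxylase that sets the kind of bile acid made, had 0.0247, 0.0107, 0.0290, 0.0437, 0.0313, 0.240, 0.0538, 1.35 and 5.27 RPKM. It was called at the last 2 steps (1.16 and 1.42). CYP7B1, which acts on oxysterols, was not called at any step and lay between 0.745 and 3.29 RPKM.

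Into the larva 8 of the 16 sterol and bile acid genes were called higher and 0 lower. The step difference was 4.12 for CYP7A1 and 2.84 for cyp27a1.1. The 3 genes named CYP27A1 (ENSDARG00000088013, ENSDARG00000055159 and ENSDARG00000069186) went to 3.69, 1.96 and 1.55 RPKM from 0.126, 0.174 and 0.00898. None of these 3 gave whole reads over 1 gene length. Near-identical copies can share reads, which was not tested, so their separate levels are uncertain. The same holds for cyp46a1.2 and cyp46a1.3, and of all 27 P450 genes called higher in the larva 16 had a recovered length. The brain-type cholesterol 24-hydroxylases cyp46a1.2 and cyp46a1.3 were called higher, reaching 1.83 and 4.81 RPKM, while cyp46a1.1 went from 0.643 to 1.03 RPKM and was not called.

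Of 14 measured genes of bile acid transport and its nuclear receptors, 5 were at least 2-fold higher in the larva and 0 lower. FABP6, the bile acid binding protein of the ileum, went from 1.23 to 125 RPKM. SLC10A2, the bile acid transporter of the ileum, went from 0.264 to 4.25 RPKM, and NR1I2, a xenobiotic-sensing receptor, from 1.83 to 6.05 RPKM. slc27a2a, a fatty acid activating enzyme, was instead highest at 15-somite, with 56.6 RPKM, and level between Protruding-mouth and the larva, at 21.8 and 21.9 RPKM.

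The 2 CYP1 genes outside these roles were moderate and did not take part in the larval difference. CYP1B1, which in vertebrates is expressed in the eye, had 0.0109, 0.649, 0.0553, 1.38, 2.06, 1.45, 1.80, 1.31 and 1.21 RPKM, with a call of 1.17 into 15-somite. cyp1d1 had 2.18, 1.33, 2.11, 4.35, 3.03, 3.73, 4.21, 5.47 and 6.96 RPKM, with no call. Some CYP1 genes are known targets of the aryl hydrocarbon receptor, which was not tested for these 2. Of 10 measured genes of that pathway, 2 were at least 2-fold higher in the larva and 0 lower. The receptor gene ahr2 went from 9.80 to 11.0 RPKM and was not called, while the glutathione transferase gene gsta.1 went from 26.1 to 116 RPKM. The chaperone gene HSP90AB1, which was the most abundant of them, had 535 and 815 RPKM.

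Of the 21 other CYP2 genes, 19 were highest at 1 week and 12 were called higher into it, with 0 lower. Of the 19868 genes at 1 RPKM in at least 1 library, 27.2% were highest at 1 week and 15.1% were called higher. Of all 29291 genes 10.2% were called higher. The 21 CYP2 genes include cyp2k22, cyp2k31, cyp2x10.1 and cyp2x10.2, which never reached 1 RPKM and so lie outside the 19868. CYP2 enzymes of the fish J-like branch, with the letters ad, n, p and v, are relatives of the mammalian CYP2J enzymes that epoxidize arachidonic acid. cyp2ad3 had 1.53, 0.711, 0.758, 2.17, 4.30, 4.20, 5.57, 9.31 and 78.0 RPKM. It was the most abundant P450 gene of the larva, with 16.9% of the summed P450 level, and it was already above 4 RPKM from Prim-25.

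cyp2n13 had 0.236, 0.0105, 0.0578, 0.199, 0.197, 0.285, 0.325, 0.902 and 48.3 RPKM, and its step difference of 4.70 was the largest into the larva. cyp2ad2 had 0.0246, 0.0161, 0.0630, 0.0999, 0.0679, 0.149, 0.0603, 0.275 and 14.4 RPKM. cyp2ad6 had 0.0768, 0.275, 0.0422, 0.285, 0.292, 0.543, 0.246, 0.793 and 15.0 RPKM. In contrast to cyp2ad3, these 3 genes were below 1 RPKM in all 8 libraries before the larva.

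cyp2p6 had 0.0159, 0.00621, 0.459, 0.384, 0.240, 0.258, 0.179, 0.454 and 11.6 RPKM. cyp2p7 had 0.0542, 0.0811, 3.69, 0.685, 0.296, 0.512, 0.263, 0.244 and 12.4 RPKM. It was thus called at 3 steps, higher into 50%-epiboly (2.12), lower after it (-1.48) and higher into the larva (3.43). cyp2v1 had 9.79, 7.16, 3.08, 6.93, 7.58, 5.84, 6.02, 6.27 and 13.5 RPKM, a gene of all stages whose one call, -1.0 into 50%-epiboly, sat at the threshold. cyp2x9 had 0.162, 0.0128, 0.422, 0.688, 0.193, 0.229, 0.164, 1.57 and 10.7 RPKM and was called at the last 2 steps.

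In RefSeq's zebrafish assembly GRCz12tu, which is not the build of the table, 11 of these CYP2 genes stand next to each other in the order cyp2n13, cyp2ad6, cyp2ad2, cyp2v1, cyp2ad3, cyp2p6, cyp2p7, cyp2p8, cyp2p9, cyp2p10 and cyp2j20. Into the larva 9 of the 11 were called higher. cyp2p10, with 0.80, and cyp2v1, which was just short of the threshold at 0.995, were not. The RPKM ratio of larva to Protruding-mouth was 52.2 for cyp2ad2, 2.15 for cyp2v1 beside it and 8.38 for cyp2ad3 on the other side. It was 50.9 for cyp2p7, 27.8 for cyp2p8, 8.57 for cyp2p9 and 2.14 for cyp2p10. Of the 11 genes, cyp2n13, cyp2ad2, cyp2ad3 and cyp2p8 gave no whole reads over 1 gene length. Neighbouring copies can share reads, which was not tested, so the separate levels of the 11 genes are uncertain.

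**Figure D4:**
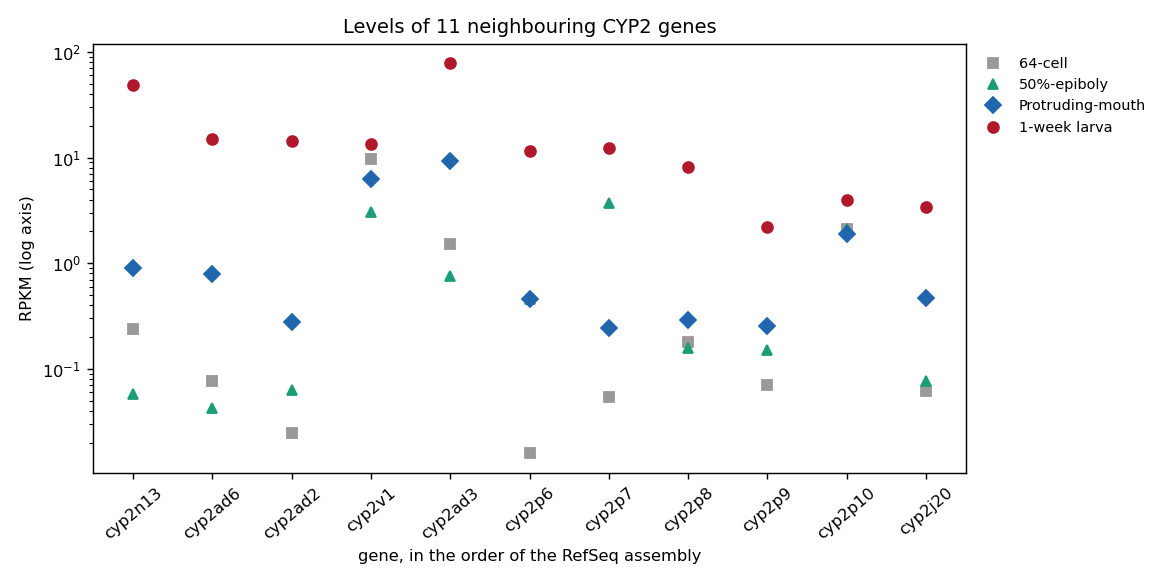
RPKM (log axis) of 11 neighbouring CYP2 genes, in the order of RefSeq's GRCz12tu assembly, in 4 of the 9 libraries. The larval points are the highest for all 11 genes, and the ratio to Protruding-mouth is smallest at cyp2v1 and cyp2p10.

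A second run of neighbours held cyp2x6, cyp2x7, cyp2x8 and cyp2x9, and its first gene was highest at 50%-epiboly, not in the larva. cyp2x6, which also lacks a recovered length, had 0.0102, 0.00600, 6.34, 0.457, 0.140, 0.154, 0.0395, 0.0642 and 0.179 RPKM, with calls of 2.87 into 50%-epiboly and -2.33 out of it. cyp2x8 went from 0.326 to 6.10 RPKM into the larva, and cyp2x7, between them in the assembly, was not called at any step. Of the other CYP2 genes, CYP2U1, a fatty acid hydroxylase in mammals, went from 0.960 to 5.74 RPKM into the larva.

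All 4 CYP3 genes, members of the family that in mammals holds the main drug-metabolizing enzymes, were called higher into the larva. cyp3c1 had 8.59, 5.01, 2.17, 3.43, 4.22, 4.33, 4.88, 6.38 and 44.0 RPKM and was present at every stage. cyp3c3 had 0.0437, 0.173, 0.184, 0.185, 0.204, 0.0566, 0.121, 0.155 and 15.8 RPKM, from 71 reads at Protruding-mouth to 7182 at 1 week. The step differences were 3.86 for cyp3c3, 2.61 for cyp3c1, 1.49 for cyp3c2 and 1.39 for cyp3c4, the last being 0.99 with median-of-ratios scaling. These 4 genes are also neighbours in GRCz12tu, and cyp3c2 and cyp3c4, neither with a recovered length, reached 2.04 and 2.79 RPKM.

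Of the 4 CYP4 genes, which belong to the family of fatty acid omega-hydroxylases, 3 were called higher into the larva. cyp4t8 had 0.380, 0.103, 0.318, 4.32, 4.68, 4.59, 1.39, 1.07 and 11.4 RPKM, with a first plateau from 15-somite to Long-pec, a call of -1.23 into Pec-fin and a second, higher level at 1 week. CYP4V2 (ENSDARG00000062132) had 0.184, 0.0200, 0.0531, 0.0749, 1.4, 2.16, 1.53, 3.17 and 12.2 RPKM. The other CYP4V2 gene (ENSDARG00000061585) went from 0.786 to 6.48 RPKM into the larva, while cyp4f3 had at most 0.163 RPKM. CYP20A1, whose substrate is not established, had 8.23, 15.7, 6.20, 21.4, 13.4, 16.1, 14.5, 10.2 and 8.33 RPKM and was the leading P450 gene at Prim-25, Long-pec and Pec-fin.

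Counted by step, more P450 genes were called at the last step than at any earlier one. A gene below 1 RPKM in both libraries of a step cannot be called. That holds at every earlier step for the 20 P450 genes that reached 1 RPKM in the larva alone, so the low counts before the larva are partly set by the measure. The shares given beside the counts are over the 19868 genes at 1 RPKM in at least 1 library, of which 51 are P450 genes. From 64-cell to oblong-sphere 0 of the 51 were higher and 1 lower, against 3.1% and 3.3%. From oblong-sphere to 50%-epiboly 5 were higher and 5 lower, against 14.4% and 31.1%. From 50%-epiboly to 15-somite 6 were higher and 5 lower, against 16.4% and 4.91%. At both of these steps CYP26A1, CYP27C1, CYP51A1, CYP2R1 and CYP20A1 were among those called. With median-of-ratios scaling cyp2v1 (-0.74) and CYP20A1 (-0.91) into 50%-epiboly and CYP2R1 (0.92) into 15-somite fall short of 2-fold. From 15-somite to Prim-25 3 were higher and 1 lower, against 6.23% and 4.96%.

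The next 3 steps, from 36 to 72 hours, held few calls. From Prim-25 to Long-pec 0 were higher and 0 lower, against 0.81% and 0.403%. From Long-pec to Pec-fin 0 were higher and 1 lower, against 0.785% and 0.72%. From Pec-fin to Protruding-mouth 2 were higher, CYP8B1 and cyp2x9, and 0 lower, against 7.18% and 2.1%. Both calls of that last step are lost under median-of-ratios scaling, where the differences are 0.998 and 0.971.

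From Protruding-mouth to the larva 27 of the 60 P450 genes (45%) were at least 2-fold higher, and 1, CYP17A1, was lower (-1.09). Of all 29291 genes 10.2% were higher, and of the 19868 genes at 1 RPKM in at least 1 library 15.1% were higher and 6.86% lower. The median step difference over the 60 genes was 0.82, beside 0.03 over all 29291. Over the 51 that reached 1 RPKM it was 1.33, beside 0.0028 over the 19868. Of these 51, 20 passed that filter through the larva alone, so for them a rise was built into this median. The 27 genes were 12 CYP2, 8 sterol and bile acid, 4 CYP3 and 3 CYP4 genes. Levels of 1 RPKM or more in the larva alone were found for 20 P450 genes and for 1788 genes in all, which is 9.0% of the 19868. With median-of-ratios scaling, which shifts this step by -0.43 for every gene, 5 of the 27 calls fall below 2-fold: cyp2p9, cyp3c4, cyp46a1.2 and the CYP27A1 genes ENSDARG00000055159 and ENSDARG00000069186.

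Markers of several organs also differed between the same 2 libraries. Of 13 exocrine pancreas markers all 13 were at least 2-fold higher in the larva, with the sum going from 168 to 31741 RPKM, and prss59.2 highest at 6610 RPKM. Of 16 hepatocyte markers 6 were higher and 2 lower, with the sum going from 4128 to 2955 RPKM. fabp10a was among the 6, while apoa2, an apolipoprotein that the yolk cell layer also makes, went from 3288 to 1438 RPKM. Of 6 intestine markers 3 were higher and 1 lower, and VIL1, the villin of the brush border, went from 3.89 to 26.0 RPKM. No marker of these 3 lists was at 0 in either library. Of 15 oocyte and ovary markers 7 were higher and 1 lower, with the sum going from 8.51 to 71.3 RPKM, and the egg coat gene zp2.1 went from a listed 0 to 17.3 RPKM. The part of such RNA in the P450 levels was not tested.

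**Figure D5:**
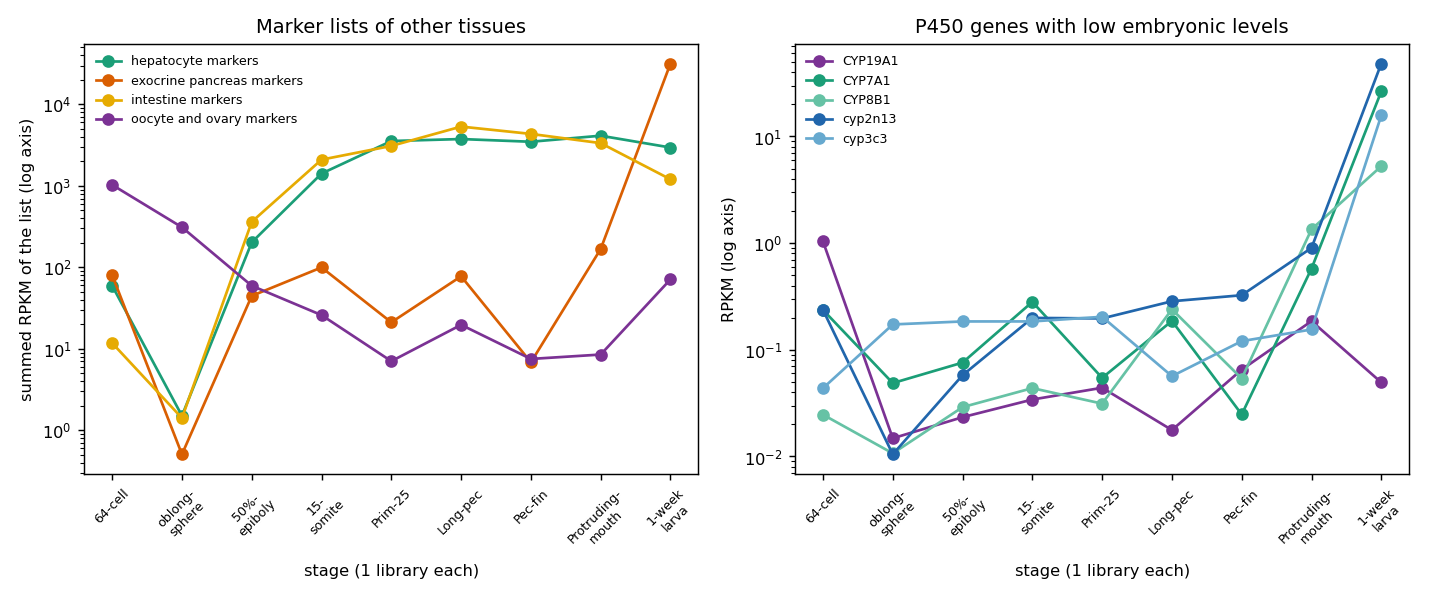
Left, summed RPKM (log axis) of hepatocyte, exocrine pancreas, intestine, and oocyte and ovary markers at the 9 stages; right, RPKM (log axis) of 5 P450 genes with low embryonic levels, 1 library each. The pancreas sum is highest in the larva (31741 RPKM) and the ovary sum at 64-cell (1029 RPKM), where CYP19A1 (1.04 RPKM) is highest too, while CYP7A1, CYP8B1, cyp2n13 and cyp3c3 are highest in the larva.

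P450 genes present throughout were few. At 1 RPKM or more in all 9 libraries were 7 of the 60 genes (11.7%), beside 26.3% of all 29291 genes. They were CYP20A1, CYP26A1, cyp1d1, cyp2p10, cyp2v1, cyp2x7 and cyp3c1. Their highest level exceeded their lowest by 2.5 times for cyp2p10, 2.79 for cyp2x7, 3.46 for CYP20A1, 4.39 for cyp2v1, 5.23 for cyp1d1, 20.3 for cyp3c1 and 27.7 for CYP26A1. By stage of highest level, 3 of the 60 genes led at 64-cell, 2 at oblong-sphere, 4 at 50%-epiboly, 2 at 15-somite, 3 at Prim-25, 1 at Long-pec, 1 at Pec-fin, 3 at Protruding-mouth and 41 at 1 week. Among the 51 that reached 1 RPKM the larva led for 68.6%, 64-cell for 5.88% and oblong-sphere for 3.92%, where the shares of the 19868 genes were 27.2%, 17.1% and 19.9%. Of the 51, 20 reached 1 RPKM in the larva alone, so the larva was bound to be their highest stage. The same holds for 9.0% of the 19868 genes.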

How the data were processed

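RNA of 9 libraries, 1 per stage, was measured, and the authors deposited 1 table of RPKM per Ensembl gene. Per the submitters' processing notes the build was Zv9. What aligner, counter and annotation release they used is not given in the sources used here. Each column was matched to its stage by name, and 0 columns belonged to no listed sample. Symbols came from a table of gene identifiers. The members, gene lists and tests were chosen with earlier results of these data known.

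Members were grouped by 4 role lists and otherwise by family, and matching by symbol stem was widened after the symbols were seen. Neighbouring stages were compared by log2(RPKM + 1), called at 2-fold, over genes with 1 RPKM in at least 1 library. Named with every value were all steroid, retinoid, vitamin D and CYP1 members and members of other groups reaching 10 RPKM. Also named were the 3 largest differences per step and direction and up to 3 genes per pathway list. Other genes named were picked with their values in view. Alternatives were median-of-ratios scaling, rescaling after removal of the 100 most abundant genes, a pseudocount of 0.1, no filter and a threshold of 0.5 RPKM.

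Mapped reads were recovered as whole numbers for 8 libraries, and 77.6% of 2000 sampled genes, and 38 of the 60 P450 genes, then gave whole reads over 1 length (relative tolerance 1e-09). The other 22 P450 genes have no interval. Tested on simulated data, the recovery returned 40 of 40 totals. In a simulated step from Protruding-mouth to the larva, 200 of 200 genes changed 4-fold were called and 0 of 19668 unchanged genes. That simulation held counting error alone, and its changed genes were drawn from those well above 1 RPKM at Protruding-mouth. It therefore says nothing about variation between libraries or about changed genes that start lower. RefSeq's assembly GRCz12tu was used only for which genes are neighbours. Python 3.11.15, numpy 2.4.6, pandas 2.3.3, scipy 1.17.1 and matplotlib 3.10.9 were used.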

Additional observations from a re-analysis of the deposited data

How the results depend on the processing

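Of 57 calls of single P450 genes, 0 changed direction under the 2 rescalings tried. With median-of-ratios scaling 10 fell below 2-fold, and without the 100 most abundant genes 2 did. A pseudocount of 0.1 can only enlarge a difference, so that 0 calls were lost or turned with it was fixed in advance. That pseudocount adds calls of genes below 1 RPKM. With it, higher and lower calls were 4 and 8 from 64-cell to oblong-sphere, 12 and 10 into 50%-epiboly, 7 and 5 into Prim-25, and 2 and 2 into Long-pec. It also gave 17 higher into 15-somite (median 0.54), 5 lower into Pec-fin, 16 higher into Protruding-mouth, and 2 lower into the larva (median 1.91, against 1.33 as reported over the 51 filtered genes). Median-of-ratios scaling gave 3 lower into 50%-epiboly, 0 higher and 1 lower into Protruding-mouth, and 2 lower into the larva (median 0.94). Without the 100 most abundant genes 0 were lower from 64-cell to oblong-sphere and 2 lower into the larva (median 1.06), and with no filter the larval median was 0.82. Median-of-ratios scaling shifted all genes by 0.36 into 50%-epiboly, -0.63 into 15-somite, -0.31 into Protruding-mouth and -0.43 into the larva. Leaving out the top genes shifted the larval step by -0.56. The calls lost in either scaling were those of CYP19A1 at the first step, cyp2v1 and CYP20A1 into 50%-epiboly, CYP2R1 into 15-somite, CYP8B1 and cyp2x9 into Protruding-mouth, and CYP27A1 (ENSDARG00000055159 and ENSDARG00000069186), cyp46a1.2, cyp2p9 and cyp3c4 into the larva. In all, 91 of 114 values were counted as held. A median was so counted if it moved by less than 0.25, and a count was allowed a proportional change. For example, 18 and 26 P450 genes detected at Long-pec, the latter at 0.5 RPKM, counted as held. With no filter the call counts could not change, because a gene never at 1 RPKM cannot be called. No paired analysis was possible because each stage has 1 library. Counting depth limits only levels near the floor of 3 reads.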

Other observations

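Some P450 genes had levels at 64-cell or Long-pec above those of the neighbouring libraries. These courses were picked after the values were seen and were not tested. Of 31 P450 genes with at least 0.1 RPKM at 64-cell, 8 (25.8%) were at least 4 times their oblong-sphere level, beside 10.1% of 16426 such genes in all. They were CYP19A1, CYP4V2 (ENSDARG00000062132), CYP7A1, cyp27a1.1, cyp2n13, cyp2x9, cyp3c2 and cyp4f3, of which CYP19A1 was also called lower at that step. cyp2n13, for example, had 0.236 RPKM at 64-cell, 0.0105 at oblong-sphere and 0.0578 at 50%-epiboly.

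Of 50 P450 genes with at least 0.1 RPKM at Long-pec, 8 (16.0%) were there at least 1.5 times as high as in both Prim-25 and Pec-fin, beside 6.06% of 20103 such genes. They were CYP7A1, CYP8B1, cyp27a3, cyp2ad2, cyp2ad6, cyp2k22, cyp2p7 and cyp2x7. Of these 8, 1 gene, CYP7A1, was also among those named for 64-cell. The most abundant, cyp2x7, had 1.49, 3.52 and 1.36 RPKM at Prim-25, Long-pec and Pec-fin. CYP7A1 had 0.0546, 0.187 and 0.0248 RPKM in these 3 libraries, with 20 reads at Prim-25 and 73 at Long-pec, and counting intervals of 0.0333 to 0.0843 and 0.146 to 0.235 RPKM. CYP8B1 had 0.0313, 0.240 and 0.0538 RPKM. The pancreas marker sum was 21.2, 77.7 and 6.84 RPKM and fabp10a 3.15, 9.80 and 0.487 RPKM in the same 3 libraries. The sum of all 16 hepatocyte markers was 3552, 3756 and 3479 RPKM there, of which apoa2 alone had 2682, 2953 and 2977. Their median was 23.84, 24.97 and 16.4 RPKM. The part of such RNA in the P450 levels was not tested.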
